A study of Mus musculus with 12 samples.

Results

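Transcript levels of 7 ETS transcription factor genes were examined in tumourspheres treated with inhibitors of Met, of the FGF receptors, or of both. Etv1, Etv4 and Etv5 form the PEA3 subfamily, and Etv6, Ets1, Ets2 and Elk3 are ETS genes of other subfamilies. The 7 genes, and the gene lists set beside them, were chosen by symbol from the 55573 genes of the count table. Both were chosen with earlier results of these data known. All 7 passed the filter on low counts, as did 13836 genes in all and 12 of 19 other ETS genes listed beside them. RNA-sequencing covered 3 mouse spindloid mammary tumour cell lines, A1005, A1129 and A1471, and all of them carried MMTV-Metmt;Trp53fl/+;Cre. Each line was treated for 24 h with the vehicle DMSO, the Met kinase inhibitor Crizotinib, the FGF receptor kinase inhibitor PD173074, or both together (Combo), which gave 1 library per line and treatment and n = 3 lines per treatment. The control libraries therefore came from lines of the same genotype as the treated ones. The paper states that the endogenous Met locus becomes amplified in this tumour model. Neither the state of that locus nor that of the floxed Trp53 allele was examined here.

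The MMTV promoter directs a transgene mainly to mammary epithelium, and each line was derived from an independent tumour. The sample labels do not state the inhibitor concentrations of these libraries. Total counts ranged from 13031492 to 17750476 per library. None of the 66 pairs of libraries was identical, and chi-square divided by its degrees of freedom was at least 3.33 in each pair, where repeated counting of 1 library would give about 1. Of the 6 listed markers of a mesenchymal state, Vim had 30314 to 49234 counts per library and Cdh2 had at most 6. Of the 7 epithelial markers, Cdh1 had at most 9 counts and Epcam at most 29, whereas the keratin genes Krt8 and Krt18 had 17 to 611 and 53 to 748. The epithelial list summed to 16.4 to 40.5 CPM (counts scaled by TMM to a common library size) with DMSO, 24.1 to 53.4 with Crizotinib, 8.96 to 24.9 with PD173074 and 7.53 to 42.1 with the Combo. Krt18 was lower than DMSO in each line with PD173074 and with the Combo (log2 changes -1.04 and -0.96, edgeR adjusted p = 1 and 0.5, or 0.00734 and 0.000225 once the line is a block in the fit), and its part in the results was not tested. The sum of the mesenchymal list moved differently by line between DMSO and the Combo. It went from 4740 to 5140 CPM in A1005, from 3130 to 2410 in A1129 and from 3800 to 8430 in A1471. Between the same libraries, Fn1 counts changed from 15821 to 27510 in A1005, from 7316 to 6022 in A1129 and from 7636 to 67499 in A1471. Other genes of the list kept 1 direction. Twist1 was lower in each line (log2 changes -1.03, -1.09 and -1.17). Zeb1 was higher in each (0.09, 0.34 and 0.31), as was Col1a1, which had at most 9 counts outside A1005. The part of these shifts in the results was not tested. The 5 endothelial markers summed to at most 0.751 CPM in any library. The 5 immune markers summed to 31.3 to 41.9 CPM in A1005 and 4.34 to 10.8 CPM in the other lines. Adgre1 and Cd3e were each at 2 counts or fewer throughout, while Ptprc had 174 to 339 counts in A1005 and at most 2 elsewhere.

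ETS factors bind DNA through a shared domain that recognises a GGAA core, so different members can meet at the same sites. The PEA3 genes are classical transcriptional outputs of FGF receptor, Ras and ERK signalling, and Met feeds the same cascade. The repressor CIC holds PEA3 genes down until ERK phosphorylates it, and PEA3 proteins are themselves activated by ERK and destroyed through COP1. In the mammary gland PEA3 factors act in branching of the epithelium, and they are linked to invasion in breast tumours. Etv6 is a repressor of the family, Ets1 and Ets2 are activators that ERK phosphorylates, and Elk3 is a ternary complex factor that represses serum response genes until ERK converts it to an activator.

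Promoter windows in RefSeq annotation of GRCm38.p6, the same assembly as mm10, were searched because 3 of the 7 genes moved together. Each of 32851 windows held 300 bases, 250 before and 50 after a transcription start, and 7 of them belonged to 5 of the 7 genes (Etv1, Etv5, Etv6, Ets2 and Elk3). Both strands were searched. None of these 7 windows held the CIC octamers TGAATGAA or TGAATGGA, the ETS site CCGGAAGT, the AP-1 site TGANTCA or the cAMP response element TGACGTCA. Among all windows these letters were found in 1.30%, 1.21%, 3.89%, 7.81% and 1.79%. A further form of the CIC octamer, TGAATGGG, was searched after the windows had been read, and it cannot match at the same place as the other octamers. It occurred in 356 of the 32851 windows (1.08%) and in 1 of the 7. That window lies before an inner start of Etv5 and held 3 copies, starting 242, 198 and 131 bases before the start, the last on the opposite strand. No other window in the annotation held 3 or more. The sequence is shown because it holds the 3 copies and Etv5 was called lower in the Combo. It covers chr16:22438369-22438618 on the minus strand of GRCm38.p6, is written 5′ to 3′, and overlaps no exon of the gene. It holds 18 CpG and 62.0% G or C, and capitals mark the 3 copies of the octamer. A match of letters describes the sequence and does not show that CIC was bound.

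Etv5 inner promoter: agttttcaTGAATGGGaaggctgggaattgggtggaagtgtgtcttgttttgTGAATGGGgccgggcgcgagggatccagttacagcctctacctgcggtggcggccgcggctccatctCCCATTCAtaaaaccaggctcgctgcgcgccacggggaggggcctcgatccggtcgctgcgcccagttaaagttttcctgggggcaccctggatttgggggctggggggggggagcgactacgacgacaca

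With DMSO, Etv4 was the most abundant ETS transcript per unit length. Levels of different genes are compared here as RPKM, the TMM-normalised CPM divided by the exon length of the gene in kilobases. This length joins all annotated exons of a gene, 13296 bases for Etv1 and 3104 for Etv4, and ranks and shares in RPKM depend on it. Etv4 stood at 62.9 ± 13.5 RPKM (SD, n = 3 lines) and was above the next gene, Elk3 (26.4 ± 4.11), in all 3 lines. Below Elk3 came Erf (21.7 ± 7.0), a repressor of the family, then Gabpa (17.3 ± 4.52), Ets2 (17.2 ± 4.90), Etv5 (16.7 ± 1.97), Ets1 (16.0 ± 3.39) and Etv6 (12.1 ± 1.68). Gabpa, Ets2, Etv5 and Ets1 lay within 1 SD of each other, and no neighbouring pair among these 4 kept its order in every line. Elk3 was above Erf in 2 of the 3 lines, Erf above Gabpa in 3, and Ets1 above Etv6 in 2. Etv1 was 13th of the 26 ETS genes at 7.76 ± 2.70 RPKM, level with Elk4 at 7.74 ± 0.789. In CPM, which is not divided by length, the mean of Etv1 with DMSO (103) lay between those of Etv4 (195) and Etv5 (68.7). Of the 19 ETS genes outside the 7, Elf5, Etv2, Fev, Fli1, Spdef, Spi1 and Spic had at most 4 counts in any library. Etv2, Fli1 and Erg are endothelial or blood factors, and Erg was read in A1129 alone above 1 count (7 to 32 counts).

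The 3 PEA3 genes fell together in the Combo and were not called with Crizotinib. Etv4 had 225, 147 and 213 CPM with DMSO in A1005, A1129 and A1471, and 11.8, 2.69 and 7.32 CPM with the Combo. Etv5 had 78.0, 64.8 and 63.3 CPM with DMSO, and 3.17, 1.82 and 1.43 CPM with the Combo. Etv1 had 76.5, 144 and 89.0 CPM with DMSO, and 11.4, 20.2 and 7.70 CPM with the Combo. In each gene every Combo library lay below every library of the other treatments, a separation that was not counted over all tested genes. Relative to DMSO in the same line, the Combo left 1.83% to 5.23% of Etv4, 2.26% to 4.06% of Etv5 and 8.64% to 14.9% of Etv1. The values rested on few reads in places, since Etv4 had 212, 43 and 97 counts and Etv5 had 57, 29 and 19 in the Combo libraries. In bulk RNA, fewer cells of a type and less RNA per cell cannot be told apart.

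**Figure D1:**
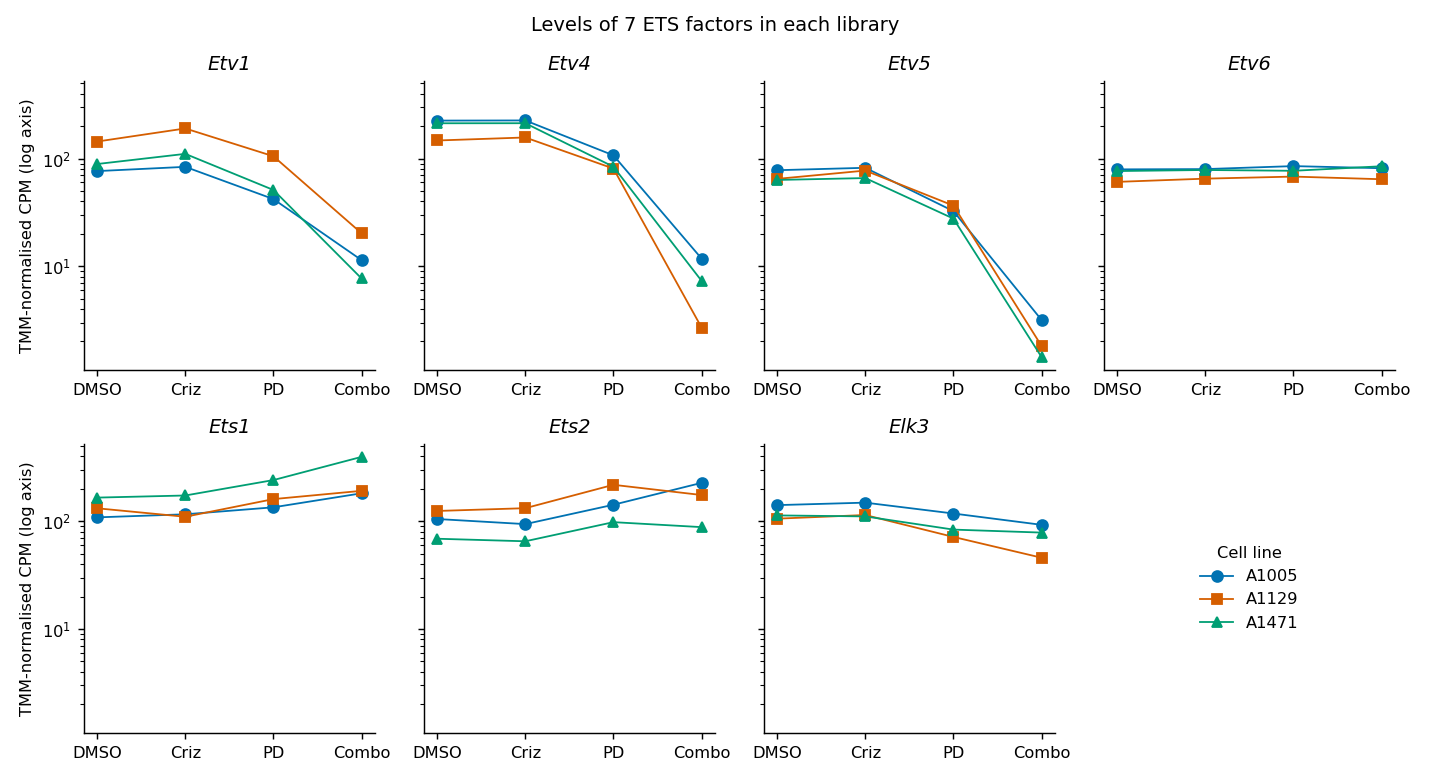
TMM-normalised CPM on a log axis for each of the 7 genes with DMSO, Crizotinib (Criz), PD173074 (PD) and the Combo, where each point is 1 library and lines join libraries of the same cell line. Etv1, Etv4 and Etv5 drop to between 1.43 and 20.2 CPM in the Combo, Etv6 stays between 60.8 and 85.2 CPM in all 12 libraries, Ets1 is higher and Elk3 lower in each Combo library than in the DMSO library of its line.

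Etv4 (chromosome 11 of mm10 from 101769742 to 101785371) fell by 4.74 on the log2 scale in the Combo against DMSO (standard error, SE, 0.48, edgeR's quasi-likelihood test, adjusted p = 0.000384). Etv5 (chromosome 16 from 22381309 to 22439719) fell by 4.99 (SE 0.30, edgeR adjusted p = 4.3e-05). Etv1 (chromosome 12 from 38779380 to 38870484) fell by 2.97 (SE 0.51, edgeR adjusted p = 0.00482). Thus 3 of the 7 genes were called, each of them downward, where 14.4% of the tested genes were called in this comparison and 8.28% were called lower. When the line was entered as a block, which removes the differences that a line carries through all treatments, 6 of the 7 were called, 4 of them downward, against 54.8% of the tested genes, 26.2% lower. The adjusted p of the PEA3 genes with this block ranged from 2.74e-07 to 1.28e-06 in edgeR's test. Etv5 was called in each of 13 settings of the analysis. Etv4 and Etv1 were called in 12 and lost the call without A1471, with edgeR adjusted p of 0.0702 and 0.123. In that fit 0.856% of all tested genes were called.

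Etv6, Ets1, Ets2 and Elk3 took other courses. Etv6 (chromosome 6 from 134035700 to 134270158) had 79.4, 60.8 and 76.6 CPM with DMSO and 81.4, 64.3 and 84.9 CPM with the Combo, values that overlapped (log2 change 0.09, SE 0.16, edgeR adjusted p = 0.786, or 0.369 with the block). Ets1 (chromosome 9 from 32636221 to 32757820) had 109, 132 and 166 CPM with DMSO and 182, 192 and 397 CPM with the Combo. All Combo libraries of Ets1 lay above all DMSO libraries, with a log2 change of 0.92 (SE 0.35) that missed the threshold (edgeR adjusted p = 0.113) and passed it with the block (adjusted p = 0.000426). Elk3 (chromosome 10 from 93247414 to 93311135) had 141, 106 and 113 CPM with DMSO and 92.7, 45.9 and 78.5 CPM with the Combo. Its groups did not overlap either, with a log2 change of -0.73 (SE 0.28, edgeR adjusted p = 0.112, or 0.00122 with the block). The share of all tested genes without overlap between these groups was not counted. Elk3 shares 316 exonic bases with Cdk17 on the opposite strand, and whether the counting used strand is not given in the sources used here. Cdk17 had at most 1043 counts per library and a log2 change of -0.57 (edgeR adjusted p = 0.496, or 0.0206 with the block). Etv6 shares 135 exonic bases with an antisense gene that had at most 2 counts.

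Ets2 (chromosome 16 from 95702075 to 95721051) differed between lines in the order of its treatments. It had 105, 125 and 68.9 CPM with DMSO, 142, 218 and 98.2 CPM with PD173074, and 227, 175 and 88.3 CPM with the Combo in A1005, A1129 and A1471. In A1005 the Combo level was the highest, at 217% of DMSO, whereas in A1129 and A1471 the PD173074 level was the highest, at 175% and 143% of DMSO. The Combo and DMSO groups overlapped, and the log2 change of 0.72 (SE 0.42) was called only with the block among edgeR's fits (adjusted p = 0.294, or 0.0075 with the block). Of the 4 genes outside the PEA3 subfamily, none was called by edgeR without a block, where 14.4% of all tested genes were (DESeq2 without a block called Ets1). With the block Ets1 and Ets2 were called higher and Elk3 lower, where 54.8% of all tested genes were called.

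**Figure D2:**
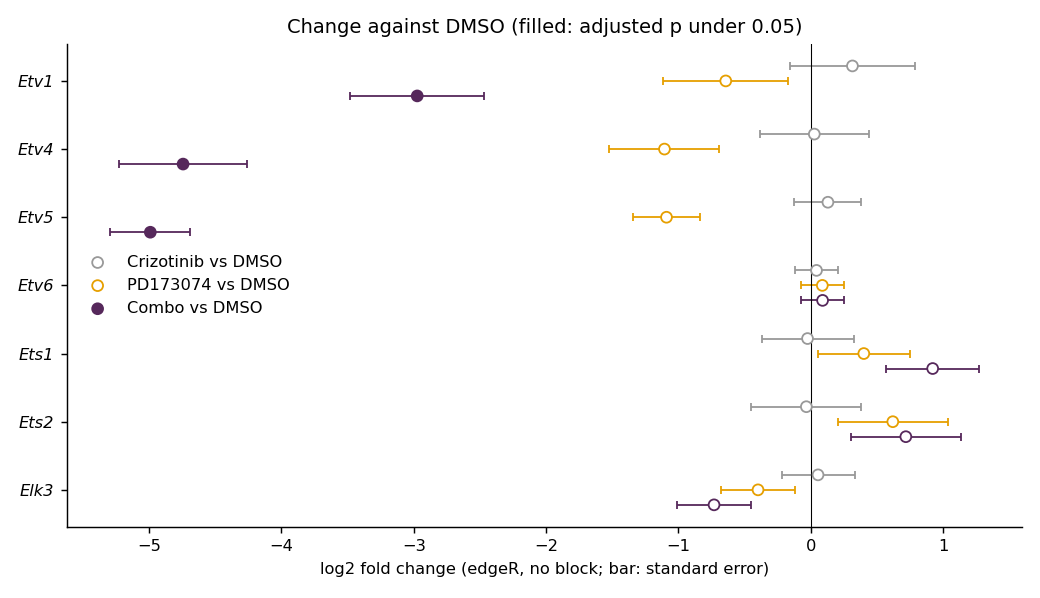
Log2 fold change against DMSO for each of the 7 genes with Crizotinib, PD173074 and the Combo, from edgeR's fit without a block, where bars are standard errors and filled points passed an adjusted p of 0.05. The 3 filled points are Etv1, Etv4 and Etv5 in the Combo at -2.97, -4.74 and -4.99, and their PD173074 points lie between -1.11 and -0.64.

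With PD173074 alone the PEA3 transcripts stood between their DMSO and Combo levels in every line. Etv4 had 107, 80.8 and 84.0 CPM with PD173074, which was 39.5% to 54.9% of DMSO in the same line. Etv5 had 32.5, 36.6 and 27.7 CPM, or 41.7% to 56.4% of DMSO. For both genes all 3 PD173074 libraries lay below all 3 DMSO libraries, and how many of all tested genes separate in this way was not counted. Etv1 had 42.1, 105 and 51.1 CPM, or 55% to 73.0% of DMSO, and its groups overlapped, as A1129 with PD173074 lay above both other lines with DMSO. The log2 changes were -1.11, -1.09 and -0.64 for Etv4, Etv5 and Etv1. Without a block 0 of the 7 genes and 0% of all tested genes passed in edgeR's test, although 307 genes had an unadjusted p under 0.05, and DESeq2 called 17 genes, limma-voom none. With the block 3 of the 7 were called, Etv5 (adjusted p = 0.0082), Etv4 (0.042) and Etv1 (0.0485), against 2.14% of all tested genes. Etv6, Ets1, Ets2 and Elk3 had log2 changes of 0.09, 0.40, 0.62 and -0.40 with PD173074 and were not called in either fit (edgeR adjusted p of at least 0.121 with the block).

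Crizotinib alone left each PEA3 transcript at or above its DMSO level in every line. Etv4 had 226, 157 and 213 CPM, which was 100% to 107% of DMSO, and Etv5 had 82.1, 77.4 and 65.9 CPM, or 104% to 119%. Etv1 had 83.8, 191 and 111 CPM, or 110% to 132% of DMSO. These differences did not pass, with log2 changes of 0.03, 0.13 and 0.31 and standard errors of 0.41, 0.25 and 0.47. For the 4 other genes the log2 changes lay between -0.03 and 0.05. No member and 0% of all tested genes were called in edgeR's test without or with the block (18 and 258 genes with an unadjusted p under 0.05), while DESeq2 called 1 gene, limma-voom 0, and limma-voom with the block 1, none of them among the 7.

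The 3 PEA3 genes also fell in the Combo against each inhibitor alone. Against Crizotinib, the Combo lowered Etv1, Etv4 and Etv5 by log2 changes of -3.29, -4.77 and -5.12 (edgeR adjusted p = 0.00338, 0.00042 and 5.29e-05), so that 3 of the 7 genes were called against 13.2% of all tested genes. Against PD173074, the Combo lowered them by log2 changes of -2.33, -3.64 and -3.90 (edgeR adjusted p = 0.0267, 0.00186 and 0.000119), again 3 of 7 against 4.77% of all tested genes. With the block, 6 of the 7 were called against Crizotinib (53.4% of all genes) and 4 against PD173074, Ets1 being the addition (39.8% of all genes). Without A1471 only Etv5 kept its call in either comparison, and without A1005 Etv1 lost its call against PD173074. These comparisons share the Combo libraries and are not independent of each other.

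The difference between the effect of PD173074 with and without Crizotinib was tested as an interaction, which measures how far the Combo departed from the sum of both single changes on the log2 scale. The departure was -4.03 for Etv5 (SE 0.38, edgeR adjusted p = 0.00219) and -3.66 for Etv4 (SE 0.60, adjusted p = 0.0236). For Etv1 it was -2.65 (SE 0.68) and missed the threshold without the block (edgeR adjusted p = 0.142, or 9.03e-05 with it). Thus 2 of the 7 genes were called against 0.918% of all tested genes, and with the block 3 of the 7 against 16.2%. By line, the sum of single changes of Etv5 was -1.18, -0.57 and -1.13 in A1005, A1129 and A1471, and its change in the Combo was -4.56, -5.06 and -5.34. For Etv4 the sums were -1.07, -0.77 and -1.34 and the Combo changes -4.24, -5.70 and -4.84. For Etv1 the sums were -0.73, -0.05 and -0.49 and the Combo changes -2.73, -2.82 and -3.51. Over the 9 pairs of a PEA3 gene and a line, the Combo minus the sum lay between -4.93 and -2.0. The 2 calls were lost when any line was left out, where 0 of all tested genes were called. For Etv6, Ets1, Ets2 and Elk3 the departure was -0.04, 0.55, 0.13 and -0.39 and was not called in either fit.

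**Figure D3:**
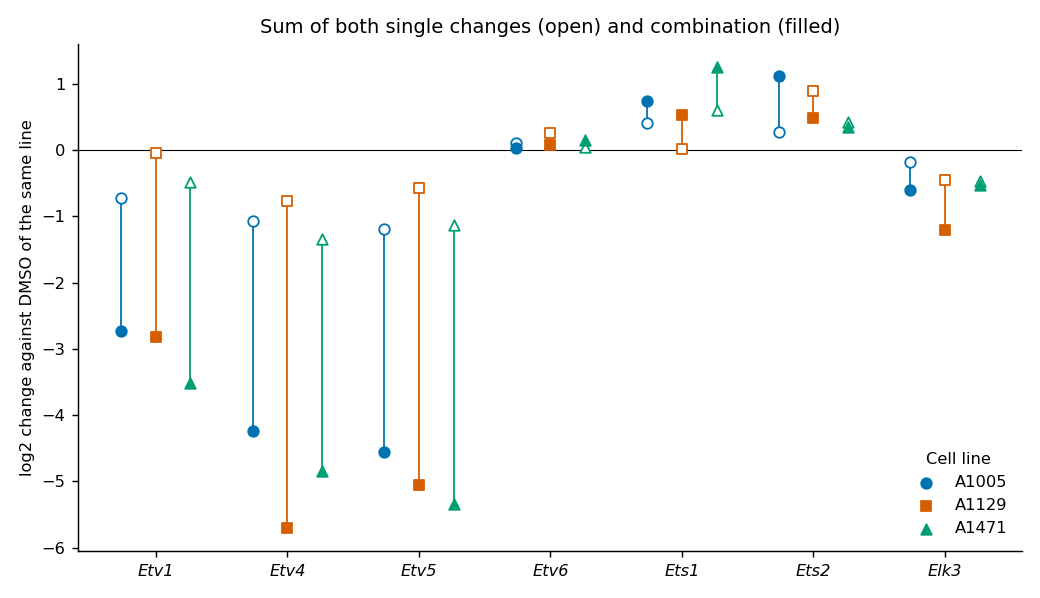
Log2 change against DMSO of the same line for each of the 7 genes, where open symbols show the sum of the Crizotinib and PD173074 changes, filled symbols the change in the Combo, and symbol shapes the 3 cell lines. For Etv4 the sums lie between -1.34 and -0.77 and the Combo changes between -5.70 and -4.24, whereas the filled minus the open symbol of Etv6 lies between -0.18 and 0.11.

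The lines differed in the make-up of their PEA3 transcripts. With DMSO, Etv4 made up 74.6%, 64.1% and 75.6% of the summed RPKM of the 3 genes in A1005, A1129 and A1471, and Etv1 made up 5.91%, 14.6% and 7.38%. A1129 thus had the lowest Etv4 and the highest Etv1. In the Combo this line kept 323 counts of Etv1 and 43 of Etv4, so that Etv1 made up 53.7% of what was left, against 15.8% and 17.6% in A1005 and A1471. With 1 library per line and treatment, this difference between lines has no replicate test.

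The share of the PEA3 genes in the summed transcripts of 26 ETS genes was lowest with the Combo in each line. The total was 254, 245 and 250 RPKM with DMSO in A1005, A1129 and A1471, and 206, 185 and 204 RPKM with the Combo. The 3 PEA3 genes supplied 38.4%, 30.2% and 36.2% of it with DMSO, 38.1%, 32.8% and 36.2% with Crizotinib, 21.2%, 18.6% and 17.7% with PD173074, and 2.63%, 1.53% and 1.61% with the Combo. The other 23 genes summed to 156, 171 and 160 RPKM with DMSO and to 201, 182 and 200 RPKM with the Combo, higher in each line. By level in the Combo, Ets1 (30.3 ± 14.3 RPKM), Ets2 (28.3 ± 12.2), Erf and Elk3 (15.9 ± 5.28) were the first 4 genes, Etv6 was 9th, and Etv4 (2.34 ± 1.46), Etv1 (0.986 ± 0.485) and Etv5 (0.522 ± 0.222) were 14th, 16th and 17th. These sums were not tested.

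**Figure D4:**
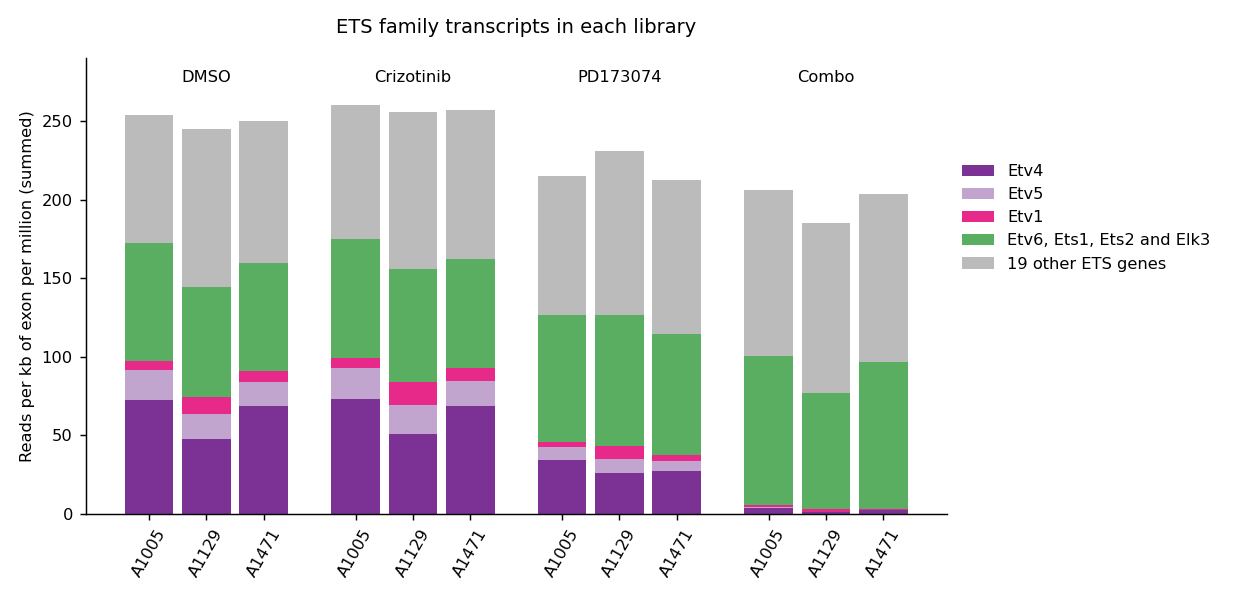
Stacked bars of the summed RPKM of 26 ETS genes in each of the 12 libraries, divided into Etv4, Etv5, Etv1, the sum of Etv6, Ets1, Ets2 and Elk3, and 19 other ETS genes. The PEA3 part shrinks from 74.1 to 97.4 RPKM with DMSO to 2.83 to 5.43 RPKM with the Combo, while the sum of the other 4 members is 69.2 to 75.3 RPKM with DMSO and 73.8 to 94.8 RPKM with the Combo.

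Of the 12 other ETS genes tested, 2 were called in the Combo, both higher, where 14.4% of all tested genes were called, and the median log2 change of the 12 was 0.45, beside 0.02 over all tested genes. Spib and Ehf passed the filter on low counts only through libraries with PD173074 or the Combo, so the filter favoured a rise in both genes. With at least 10 counts required in every library, 8 of the other ETS genes were tested and 1 was called. Elf1, an activator best known from lymphoid cells, rose from 54.4 ± 7.51 to 88.2 ± 9.01 CPM (SD over 3 lines, log2 change 0.70, edgeR adjusted p = 0.0276). Spib, a factor of the SPI1 subfamily known from B cells and specialised epithelia, had 0, 1 and 2 counts with DMSO in A1005, A1129 and A1471, 0, 1 and 3 with Crizotinib, 144, 3 and 23 with PD173074, and 725, 83 and 61 with the Combo. With a floor of 3 counts per library it was at least 78.4-fold higher in the Combo than with DMSO (edgeR adjusted p = 0.0197). That bound rests mostly on A1005. By line, a split added after the values were seen, it was 172-fold in A1005, 26.4-fold in A1129 and 22.2-fold in A1471, and 24.2-fold over the lines other than A1005 (edgeR adjusted p = 0.0299). Without A1129 or A1471 the edgeR adjusted p of Spib was 0.124 or 0.155. Leaving out A1005 left 1 of the 11 other ETS genes then tested called (14.9% of all tested genes), leaving out A1129 left 0 of 11 (2.35%), and leaving out A1471 left 0 of 12 (0.856%). The gene still called without A1005 was Spib, so Elf1 lost its call whichever line was left out. The immune marker Cd68 was also higher in each Combo library than in DMSO of its line (64 to 227 counts with DMSO and 109 to 439 with the Combo, edgeR adjusted p = 0.624, or 0.00603 with the block), Ptprc had 174 and 314 counts in A1005, and Adgre1 and Cd3e were at 2 counts or fewer. The part of these markers in the Spib values was not tested. With the block 9 of the 12 genes were called, 7 higher and 2 lower, against 54.8% of all tested genes. Erf and Gabpa were the lower ones (log2 changes -0.30 and -0.36 with the block), and Ehf, an epithelial ETS factor, was among the higher ones, with 4, 1 and 0 counts with DMSO, against 127, 16 and 7 in the Combo (edgeR adjusted p = 0.104, or 4.18e-05 with the block).

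Other outputs of ERK signalling were followed as a list of 18 genes, and 12 of them were called lower in the Combo (8.28% of all tested genes) and none higher (median log2 change -2.48, beside 0.02 over all tested genes). The list was chosen with earlier results of these data known, so its share of calls describes the list and is no independent test. Among the feedback inhibitors, Dusp6, an ERK phosphatase, fell from 183 ± 56.8 to 5.56 ± 3.44 CPM (SD over 3 lines, log2 change -5.03, edgeR adjusted p = 0.000486). Spry4, a Sprouty inhibitor of receptor signalling, had 127, 374 and 270 counts with DMSO, against 2, 10 and 1 in the Combo (log2 change -5.98, edgeR adjusted p = 0.00343). Dusp4, Dusp5, Spry2, Spred1, Spred2 and Spred3 were the other feedback genes called lower. Ccnd1, the cyclin D1 gene, and Fosl1, an AP-1 subunit, fell by log2 changes of -5.29 and -3.28 (edgeR adjusted p = 4.59e-05 and 0.000544). Ier3 and the receptor gene Epha2 completed the 12. With the block 14 were called lower (26.2% of all tested genes) and 2 higher. The higher ones were Il17rd, which encodes the feedback inhibitor SEF, at 13, 41 and 23 counts with DMSO, against 38, 176 and 252 in the Combo (edgeR adjusted p = 0.112, or 0.000909 with the block), and Epha4, which was read in A1005 alone. Without A1471 the count of calls in the list was 2, where 0.856% of all tested genes were called, and without A1129 it was 5, where 2.35% were. In the test of departure from additivity, 4 of the 18 were called, Dusp6, Fosl1, Epha2 and Ccnd1 (0.918% of all tested genes). These 4 were lower than additive, as were 126 of the 127 tested genes called in that test. No tested gene was called there when any line was left out.

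**Figure D5:**
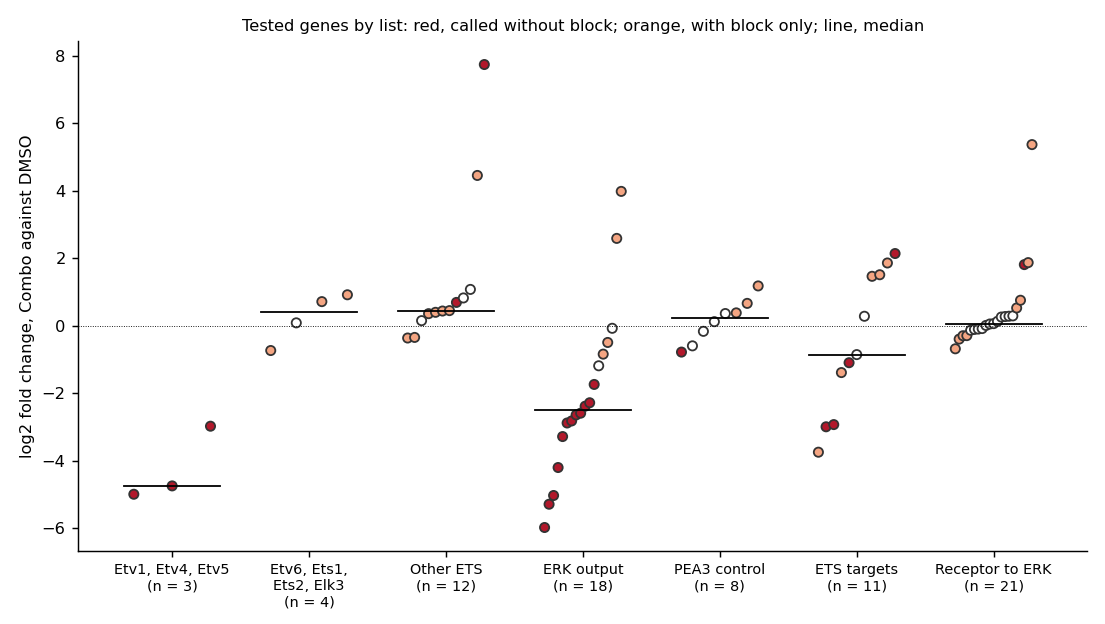
Log2 fold change in the Combo against DMSO of each tested gene in 7 groups of genes, where red points were called without a block, orange points only with the cell line as a block, open points in neither fit, and horizontal lines are group medians. The ERK output genes have a median of -2.48 and 12 red points, all below 0, the 12 other ETS genes a median of 0.45, and the genes from receptor to ERK a median of 0.07. The groups were chosen with earlier results of these data known.

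Of 8 genes listed for products that repress PEA3 genes, degrade PEA3 proteins or assist in either, 1 was called in the Combo, where 14.4% of all tested genes were. It was Dcaf1, a substrate receptor of ubiquitin ligases, which fell (log2 change -0.78, edgeR adjusted p = 0.0315). An effect of Dcaf1 on PEA3 factors was not tested. Cic, the repressor of PEA3 genes, had 140 ± 42.3 CPM with DMSO and 222 ± 94.0 with the Combo and was higher in all 3 lines (log2 change 0.67, edgeR adjusted p = 0.266, or 0.00143 with the block). Atxn1, which encodes a partner of CIC, had 15.1 ± 7.44 and 34.2 ± 11.6 CPM (log2 change 1.18, edgeR adjusted p = 0.15, or 5.3e-05 with the block). With the block 4 of the 8 were called (54.8% of all tested genes), Cic, Atxn1 and Atxn1l higher and Dcaf1 lower. Cop1, the gene of the ligase that marks PEA3 proteins for destruction, had a log2 change of 0.12 (edgeR adjusted p = 0.588).

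Of 11 tested genes known as targets of PEA3 or ETS factors, 4 were called in the Combo (14.4% of all tested genes). Plaur, the urokinase receptor gene, fell from 91.1 ± 31.9 to 11.9 ± 10.3 CPM (edgeR adjusted p = 0.0101), Spp1, the osteopontin gene, from 4312 ± 3057 to 542 ± 337 CPM (adjusted p = 0.0206), and Twist1, a mesenchymal regulator, by 1.09 on the log2 scale (adjusted p = 0.00156). Mmp14, the gene of a membrane-bound collagenase, rose from 118 ± 43.0 to 523 ± 416 CPM (edgeR adjusted p = 0.0492). The median log2 change of the list was -0.85, and with the block 9 were called (54.8% of all tested genes), 5 lower and 4 higher. Of 21 genes from the receptors to ERK, 1 was called against the same 14.4%, the adaptor gene Gab1, which rose from 11.4 ± 3.36 to 40.2 ± 18.9 CPM (edgeR adjusted p = 0.0149). The median of these 21 was 0.07, and 9 were called with the block against 54.8%, 5 higher and 4 lower. Met and Fgfr1 had log2 changes of 0.30 and -0.11 in the Combo (edgeR adjusted p = 0.722 and 0.711).

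The genes whose pattern was most like that of each member were ranked over the 12 libraries, by Pearson's r of log2 CPM after centring each gene within its cell line, among 9611 tested genes whose average log2 CPM was 3 or more. The libraries are shared by all genes, and for the PEA3 genes the 3 Combo libraries lie far below the other 9, so these values are descriptions. For Etv5 the nearest were Dusp6 (r = 0.998), Hmga2 and Mpp6 (both 0.997). For Etv4 they were Cks1b, Ccnd1 and Dusp6 (all 0.998), and for Etv1 they were Spry4, Etv5 and B3galnt2 (all 0.995). The 3 PEA3 genes correlated with each other at r = 0.982 to 0.995 and with Elk3 at 0.857 to 0.899. Their ranks for one another among the 9611 genes ran from 2 to 151. Elk3 was only at ranks 2282, 1860 and 2194 for Etv1, Etv4 and Etv5, so many genes had higher r. Ets1 ran opposite to the PEA3 genes at r = -0.949 to -0.898 (ranks 9121, 8298 and 8721), and its nearest gene was Hs6st1 (r = 0.993). Ets2 was nearest to Acpp (r = 0.949), Elk3 to Mcfd2 (r = 0.985) and Etv6, the gene of the narrowest range among the 7, to Kmt2b (r = 0.927).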

How the data were processed

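Total RNA of tumourspheres was sequenced on a NextSeq500 instrument, and the authors aligned the reads to mm10 with STAR. The submitters' processing notes also name bcl2fastq and HTSeq. The deposited values are raw read counts per Ensembl gene, without normalization. Whether counting used strand, and the annotation release, are not given in the sources used here. Treatment and cell line came from the sample labels.

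The filter filterByExpr, at a minimum count of 10 and a minimum total of 15, kept 13836 of 55573 genes. Counts were normalised by TMM and tested in edgeR 4.0.16 (R 4.3.3) with its quasi-likelihood test. One fit held all 12 libraries, without a block because the study states an unpaired analysis, and p-values were adjusted by Benjamini-Hochberg over all tested genes with a threshold of 0.05. The tests were also run on simulated counts, in which 200 genes changed by 2 on the log2 scale, equally in every line. Such counts cannot show how the fits behave where a treatment change differs between lines. Standard errors were taken as the absolute log2 change divided by the square root of F. Lines pair the libraries across treatments: deviations from the treatment means correlated at r = 0.871 on average over 18 pairs of libraries of the same line (lowest 0.766) and at -0.422 over 36 pairs from different lines. The fit with the line as a replicate block is therefore given beside results whose call it changes. With 3 lines per treatment, p-values without the block measure the treatment change against the spread between these lines. Those with the block measure it against how much the change varies across the lines.

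Gene coordinates and exon lengths for RPKM came from GENCODE M21 on mm10, where 55394 of the table's genes were found. A prior count of 2 was used for log2 CPM. Promoters came from RefSeq, where Etv4 and Ets1 had no entry in the table used. Alternatives were the block, DESeq2 1.42.0, limma-voom (limma 3.58.1) without and with the block, DESeq2 size factors, total counts, no filter, a minimum of 10 counts in every library, a fit of only the groups compared, an added minimum of 1.5 for the absolute log2 change, and leaving out each line. Plots used Python 3.11.15 with matplotlib 3.10.9. The floor of 3 counts covers counting error only, since reads are independent molecules only where molecular identifiers are used. The genes named are the 7 members, the genes of 5 lists (other ETS genes, ERK outputs, PEA3 restraint, ETS targets, receptor to ERK), cell type markers, Cdk17 for its overlap and the 3 genes most like each member. Members and lists were chosen with earlier results of these data known.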

Additional observations from a re-analysis of the deposited data

Results flagged for a closer look

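The effect of PD173074 on Etv4 and on Etv5 differed between tumourspheres with and without Crizotinib in the test of the interaction itself. For Etv5 the log2 effect with Crizotinib present minus the effect without it was -4.03 (edgeR's quasi-likelihood test, adjusted p = 0.00219). For Etv4 it was -3.66 (edgeR adjusted p = 0.0236). Both were lower than additive in 3 of 3 lines. Both calls were lost when any single line was left out, with adjusted p of up to 0.245 for Etv5 and 0.671 for Etv4, and no tested gene was called in those fits. Groups of 3 libraries were too small for a check of single outlying values.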

How the results depend on the processing

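With the cell line as a replicate block, the count of the 7 genes called went from 3 to 6 in the Combo against DMSO, from 0 to 3 with PD173074 and from 3 to 6 in the Combo against Crizotinib, and limma-voom with the block gave the same counts (6, 3 and 6). Over all tested genes the share called by edgeR went from 14.4% to 54.8%, from 0% to 2.14% and from 13.2% to 53.4%. Limma-voom with the block called 7651, 366 and 7517 of the 13836 tested genes. DESeq2 called 1 of the 7 with PD173074, and 17 of the 13836 tested genes. The count of other ETS genes called in the Combo against DMSO went from 2 to 9 with the block and to 10 in limma-voom with the block, beside the rise over all tested genes given above. It was 1 in limma-voom, without a filter, with at least 10 counts in every library, with only the groups compared, and with an absolute log2 change of at least 1.5.

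Leaving out 1 line gave 1 to 3 of the 7 genes in the Combo against DMSO, against Crizotinib and against PD173074 (1 without A1471 in each), 0 in the departure from additivity, 0 to 1 of the other ETS genes, and 2 to 13 of the ERK outputs (2 without A1471, 5 without A1129). Each such fit has 2 lines per treatment. Over all tested genes these fits called 0.856% to 14.9% in the Combo against DMSO, 0.777% to 13.5% against Crizotinib and 0.428% to 4.62% against PD173074. In the departure from additivity they called 0%. Over 42 values of a gene and a comparison, 445 of 497 alternatives kept the direction and the side of the threshold, 26 passed it in addition and 14 lost it. In 12 the sign changed, each for a log2 change that was not called in either fit. With all lines these were Etv6 in the Combo against PD173074 (-0.0026 with the replicate block, -0.0044 in limma-voom, -0.0025 in limma-voom with the block, -0.018 without a filter) and the Etv6 departure from additivity (0.0029 by total counts). Leaving out 1 line gave ranges across 0 for Etv4, Ets1 and Ets2 with Crizotinib (-0.0031 to 0.044, -0.094 to 0.072 and -0.13 to 0.031), for Etv6 and Ets2 in the Combo against PD173074 (-0.079 to 0.048 and -0.26 to 0.38), and for the departure of both (-0.12 to 0.023 and -0.29 to 0.52). The sign of Ets2 changed without A1005 in all 3 comparisons, and each edgeR adjusted p was at least 0.848. For these changes of sign the cause was not tested. Scaling by DESeq2 size factors or total counts moved the median log2 change of all genes in the Combo from 0.02 to 0.05 and 0.07, and the share of calls that were higher from 42.4% to 44.8% and 47.4%. Few reads limit Etv4 and Etv5 in the Combo libraries (19 to 212 counts).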

Other observations

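Mmp3 and Mmp13, known ETS targets that encode matrix-degrading enzymes, were picked out after their values were seen. Mmp3 had 6832, 683 and 36 counts with DMSO in A1005, A1129 and A1471 and 734, 26 and 9 with the Combo, lower in each line (edgeR adjusted p = 0.341, or 6.17e-05 with the replicate block). Mmp13 had 526, 11 and 6 counts with DMSO, against 2054, 5 and 28 in the Combo. Col1a1, a collagen gene, was read almost entirely in A1005, with 2929 counts with DMSO and 13654 in the Combo, and had at most 9 counts in any library of the other lines.

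Among the receptors that feed ERK, Fgfr2 had 0, 0 and 1 counts with DMSO, against 1, 32 and 25 in the Combo (edgeR adjusted p = 0.0798, or 0.000112 with the block). Fgfr2 passed the filter on low counts only through libraries of A1129 and A1471 with PD173074 or the Combo. The filter therefore favoured a rise in this gene. Egfr had 58, 3 and 21 counts with DMSO, against 344, 15 and 34 in the Combo (edgeR adjusted p = 0.532, or 0.0037 with the block).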
